A study of Mus musculus with 96 samples.

Results

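Whether high-fat feeding changed the difference between the perivenous and the periportal zone of the liver was examined in wildtype (Wt) mice. The members are the 48 Wt areas of illumination (AOIs) among the 96 AOIs of the study, selected by the name Control in the table of AOI measures, and they come from 8 of its 16 mice. For each mouse the log2 normalized counts of its 3 perivenous AOIs and of its 3 periportal AOIs were averaged, the periportal mean was subtracted from the perivenous mean, and this zone difference was compared between 4 mice on a high-fat diet (HFD) and 4 on a low-fat diet (LFD). A positive zone difference is a higher perivenous level. The change of the zone difference, HFD minus LFD, is called the interaction of diet and zone below.

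Both groups were male Wt mice from a line in which LoxP sites had been placed around exons 4 and 5 of Gaa, the gene of acid alpha-glucosidase, with backcrossing to C57BL/6, and Wt mice are those without a changed allele. They ate the HFD or the LFD from about 8 weeks of age for 15 weeks. The 8 heterozygous Gaa knockout (HetKO) mice of the study, 4 on each diet, carried 1 such allele, which disrupts Gaa in the whole body from birth, and served here to choose zonated genes in other animals and for the same contrast. RNA was measured on GeoMx, where tags on hybridized probes are cleaved by light within each AOI of a 5 µm section of fixed liver and then sequenced. AOIs were chosen by stains for E-cadherin, the protein of Cdh1, in the periportal zone and for Cyp2e1 in the perivenous zone, so the level of either gene in the zone it marks is not a finding.

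Blood enters the liver lobule at the portal tract and leaves at the central vein, and hepatocytes along that path differ in function. Periportal hepatocytes receive blood rich in oxygen and carry out much of urea synthesis, gluconeogenesis and amino acid breakdown. Perivenous hepatocytes carry out much of glutamine synthesis, bile acid synthesis and cytochrome P450 dependent drug metabolism, and their program depends on Wnt signals from the central vein.

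The 48 Wt AOIs had between 60874 and 1643695 deduplicated reads (median 409777), and 1 AOI was below 100000. All LFD sections lay on one slide and all HFD sections on another, so diet and slide cannot be told apart, although both zones of a mouse were always on the same slide. The negative probe, which measures background, had a mean scaled level of 16.5 in periportal and 19.1 in perivenous AOIs on LFD, against 29.7 and 30.6 on HFD. A mean of 50.3% and 55.4% of gene targets were above the limit of quantitation (LOQ) that the authors deposited for each AOI, in the periportal and perivenous AOIs of LFD mice, and of 23% and 19% in those of HFD mice. Mouse 1 of Wt HFD stood apart from the other 3 HFD mice, with a periportal detection rate of 45.2%, where the others had 12.7% to 17.6%. The part of this background in the results below was not tested, and the levels that bear on it are given beside them. In a bulk area, fewer cells of a type and less RNA per cell cannot be told apart.

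The perivenous markers Cyp1a2, Slc1a2 and Gulo had a smaller zone difference in every HFD mouse than in any LFD mouse. Cyp1a2 (chr9:57676937-57683655, GRCm38.p6) encodes a cytochrome P450 of caffeine and arylamine metabolism. Its perivenous normalized counts were 278, 323, 658 and 485 in LFD mice 1 to 4 and 114, 112, 164 and 122 in HFD mice 1 to 4. Its periportal counts were 32.6, 42.6, 46.4 and 34.1 on LFD and 40.4, 45.8, 67.4 and 59.9 on HFD. The diets therefore did not overlap in the perivenous zone and did overlap in the periportal zone. The zone difference of Cyp1a2 was 3.39 ± 0.44 (SD, n = 4) on LFD and 1.25 ± 0.19 (SD, n = 4) on HFD, a perivenous level 10.5 times the periportal one against 2.37 times. The interaction was -2.14 (SE 0.19, limma adjusted p = 6.03e-08). Here and below, the SE and p-values of limma draw in part on the spread of other genes.

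Slc1a2 (chr2:102658239-102790784) encodes a glutamate transporter that in the liver is found around the central vein. Its perivenous counts were 224, 243, 333 and 228 on LFD and 87.6, 80.9, 112 and 64.3 on HFD. Every HFD mouse lay below every LFD mouse there. Its periportal counts were 20.8, 18.5, 21.4 and 16 on LFD and 28.9, 35.4, 35.5 and 36.4 on HFD, close to the negative probe of each group. The zone difference was 3.75 ± 0.21 (SD, n = 4) on LFD and 1.45 ± 0.65 (SD, n = 4) on HFD, with an interaction of -2.30 (SE 0.23, limma adjusted p = 6.35e-07).

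Gulo (chr14:65986786-66009254) encodes the last enzyme of vitamin C synthesis. Its perivenous counts were 274, 312, 466 and 663 on LFD and 172, 93.6, 119 and 60.1 on HFD, again without overlap. Its periportal counts were 28.7, 28.4, 40.4 and 24.9 on LFD and 31.2, 29.6, 32.6 and 32.9 on HFD. The zone difference was 3.82 ± 0.84 (SD, n = 4) on LFD and 1.74 ± 0.69 (SD, n = 4) on HFD, and the interaction was -2.09 (SE 0.30, limma adjusted p = 0.000147).

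The periportal markers Hal, Sds and Cyp2f2 moved towards 0 from the other side. Hal (chr10:93488768-93516761), the first enzyme of histidine breakdown, had periportal counts of 323, 423, 327 and 727 on LFD and of 242, 106, 114 and 122 on HFD. Its perivenous counts were 43.6, 42.6, 37 and 34.2 on LFD and 38.2, 38, 38.9 and 46.6 on HFD, where the diets overlapped. The zone difference of Hal was -3.46 ± 0.63 (SD, n = 4) on LFD and -1.79 ± 0.63 (SD, n = 4) on HFD, and HFD mouse 1, at -2.74, was nearest to the LFD mice. Its interaction was 1.66 (SE 0.26, limma adjusted p = 0.000403).

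Sds (chr5:120476547-120483932), which encodes serine dehydratase, had periportal counts of 387, 410, 302 and 809 on LFD and of 262, 231, 155 and 124 on HFD. Its perivenous counts lay between 26.9 and 39.5 on LFD and between 32.5 and 46 on HFD. The periportal counts did not overlap and the perivenous counts did. The interaction of Sds was 1.61 (SE 0.26, limma adjusted p = 0.000728), from -3.84 ± 0.72 (SD, n = 4) on LFD to -2.22 ± 0.56 (SD, n = 4) on HFD.

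Cyp2f2 (chr7:27119955-27133660), a cytochrome P450 used as a standard periportal marker, had periportal counts of 438, 690, 851 and 873 on LFD and of 365, 184, 240 and 206 on HFD. Its perivenous counts were 45.1, 44.6, 81.7 and 43 on LFD and 51.7, 33.7, 43.3 and 49.5 on HFD. The zone difference was -3.79 ± 0.43 (SD, n = 4) on LFD and -2.44 ± 0.32 (SD, n = 4) on HFD, an interaction of 1.36 (SE 0.19, limma adjusted p = 0.000142).

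After subtraction of the background probe in each AOI, the ratio of the perivenous to the periportal group mean was 18.5 on LFD and 4.12 on HFD for Cyp1a2, 39.2 and 7.21 for Slc1a2, and 27.7 and 14.2 for Gulo. The periportal to perivenous ratio was then 21.5 and 11.3 for Hal, 39.4 and 18.2 for Sds, and 20.2 and 15.6 for Cyp2f2. After subtraction with values floored at 1, the interaction kept its sign in all 6, and of these only Cyp1a2 (-2.40) passed the test, with -2.12 for Slc1a2, -1.10 for Gulo, 0.27 for Hal, 0.81 for Sds and 0.17 for Cyp2f2.

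**Figure D1:**
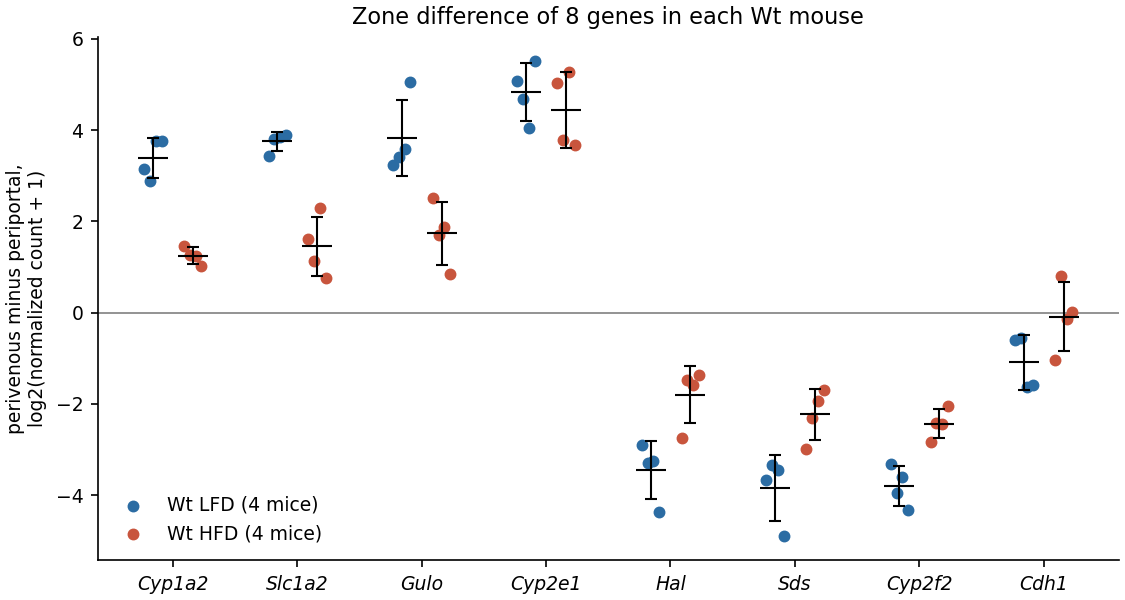
Zone difference (perivenous minus periportal, log2 of the normalized count plus 1) of 8 genes in each Wt mouse, with points for mice, horizontal bars for means and error bars of 1 SD. The LFD and HFD mice are apart for Cyp1a2, Slc1a2, Gulo, Hal, Sds and Cyp2f2 and overlap for the stain targets Cyp2e1 and Cdh1.

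**Figure D2:**
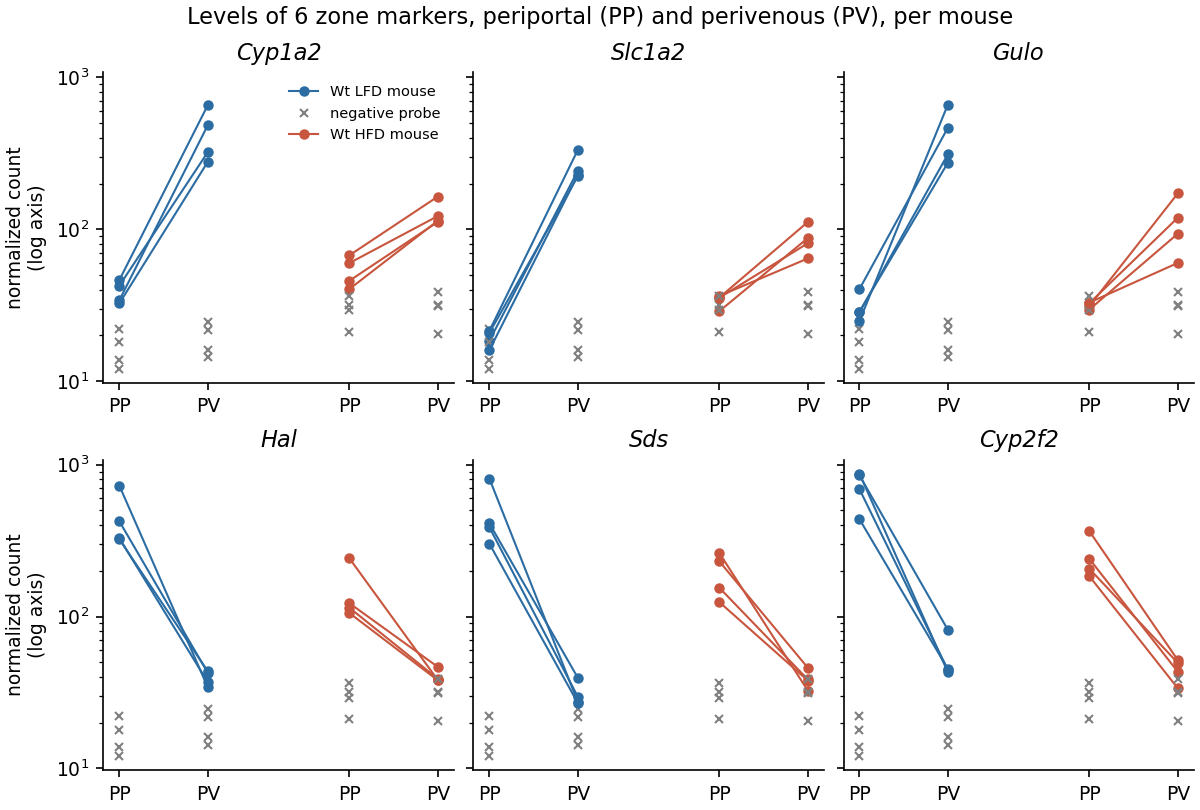
Normalized counts on a log axis of 6 markers in the periportal (PP) and perivenous (PV) zone, with a line for each mouse and crosses for the negative probe of the same AOIs. In the zone where a marker is high, every HFD mouse lies below every LFD mouse.

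The genes of both stains did not pass the test, and their exact permutation p is given beside the limma value. For each of Cyp1a2, Slc1a2, Gulo, Hal, Sds and Cyp2f2 the exact permutation p was 0.0286. That is the smallest value this permutation can give with 4 mice against 4. Cyp2e1, a cytochrome P450 of ethanol metabolism with the largest perivenous zone difference of all genes tested on either diet, had zone differences of 5.08, 4.68, 4.04 and 5.52 on LFD and of 5.03, 3.79, 5.27 and 3.67 on HFD, with an interaction of -0.39 (SE 0.28, limma adjusted p = 0.817, exact permutation p = 0.457). Its perivenous counts were 4899 to 8357 on LFD and 1008 to 3645 on HFD, and its periportal counts were 147 to 465 and 60.1 to 132. The diet change was -1.27 in the periportal zone (limma adjusted p = 0.0103) and -1.66 in the perivenous zone (limma adjusted p = 0.124). Cdh1 had zone differences of -0.60, -0.55, -1.62 and -1.59 on LFD and of -1.03, 0.81, -0.14 and 0.01 on HFD, with an interaction of 1.00 (SE 0.30, limma adjusted p = 0.166, exact permutation p = 0.114). In 2 HFD mice Cdh1 was thus no higher in the zone chosen by its protein, and only 2 of the 12 periportal HFD AOIs were above the LOQ for it, against 9 of 12 on LFD.

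Across all 6805 genes tested, the interaction was called for 43 (0.632%), that is, it had a limma adjusted p under 0.05 and a size of at least 0.80 on the log2 scale. It was lower on HFD for 29 genes (0.426%) and higher for 14 (0.206%). The zone differences of the 4 HFD and the 4 LFD mice did not overlap for 311 genes (4.57%), 192 lower (2.82%) and 119 higher (1.75%), and 38 of the 43 called genes were among them. Each of the 29 lower genes was higher perivenously on LFD and each of the 14 higher genes was higher periportally on LFD. In all 43 the zone difference was smaller in size on HFD, and its sign was the same on both diets. Since the LFD differences enter both the interaction and this description, the direction is given below also for genes chosen from other mice. Without HFD mouse 1, whose AOIs detected more genes, 53 genes were called, and without HFD mouse 2 it was 28. In 24 of the 43 the call was kept whichever single mouse was left out. The count depended on the processing of the values, since 1 gene was called after subtraction of the negative probe with a floor of 1 and 26 after subtraction with a pseudocount of 10. It was 0 after scaling to nuclei in place of the upper quartile, where reads were divided by nuclei without correction for the reads per AOI. All 43 kept their sign after subtraction with a floor of 1, but not their size. The smallest in size was then -0.02 for Cyp2c37, from -1.37, and the largest -3.14 for Notum, from -1.32. Scaling to nuclei changed the interactions of the 43 by at most 0.057.

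**Figure D3:**
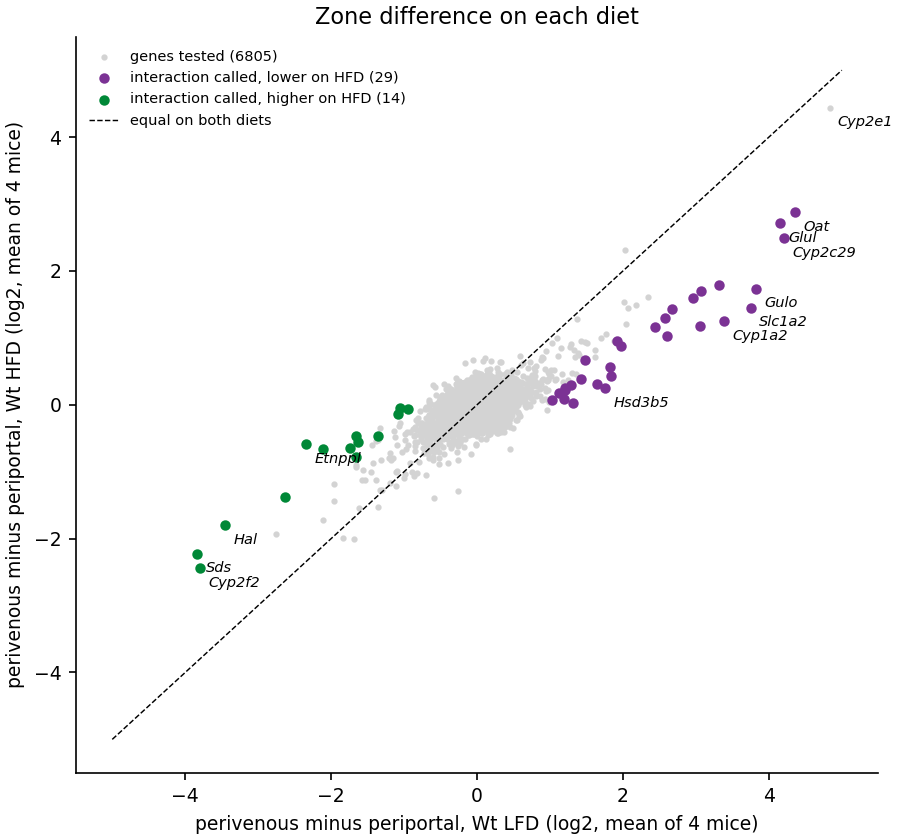
Zone difference on LFD against that on HFD, each the mean of 4 Wt mice, for 6805 genes, with the 43 called genes in colour. The 29 called genes on the right lie below the dashed line of equal difference and the 14 on the left above it, while Cyp2e1 lies close to it.

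In the normalized counts, the diet change of the called genes was mostly in the zone in which each was high. The genes were called on the zone differences of these same mice, so this split is a description and not a test. Of the 29 genes that were higher perivenously on LFD, 20 were lower in the perivenous zone of HFD than of LFD mice (7.57% of all genes were called lower there), and none was called higher. In the periportal zone, none was called lower (7.32% of all genes) and 3 were called higher (6.14%). The median diet change of the 29 was -1.17 perivenously and 0.25 periportally, beside 0.09 and 0.11 over all genes. Of the 14 genes that were higher periportally, 9 were called lower on HFD in the periportal zone and none was called in either direction in the perivenous zone, where 4.92% of all genes were called higher. Their medians were -1.24 periportally and 0.13 perivenously.

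In the zone where a called gene was low, its level was often below the LOQ on both diets. Over the 29 perivenous genes, the median number of perivenous AOIs above the LOQ was 12 of 12 on LFD and 9 of 12 on HFD, and that of periportal AOIs was 3 and 1. Over the 14 periportal genes it was 12 and 4.5 for periportal AOIs and 3.5 and 0.5 for perivenous AOIs. A further fall in the low zone could thus hardly be called. After subtraction of the negative probe, the mean low-zone levels of the 6 markers were as follows, LFD before HFD. Cyp1a2 had 22.5 and 23.6, Slc1a2 6.08 and 7.69, and Gulo 14.8 and 5.67. Hal had 20.2 and 10.3, Sds 11.7 and 8.99, and Cyp2f2 34.5 and 14.1.

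**Figure D4:**
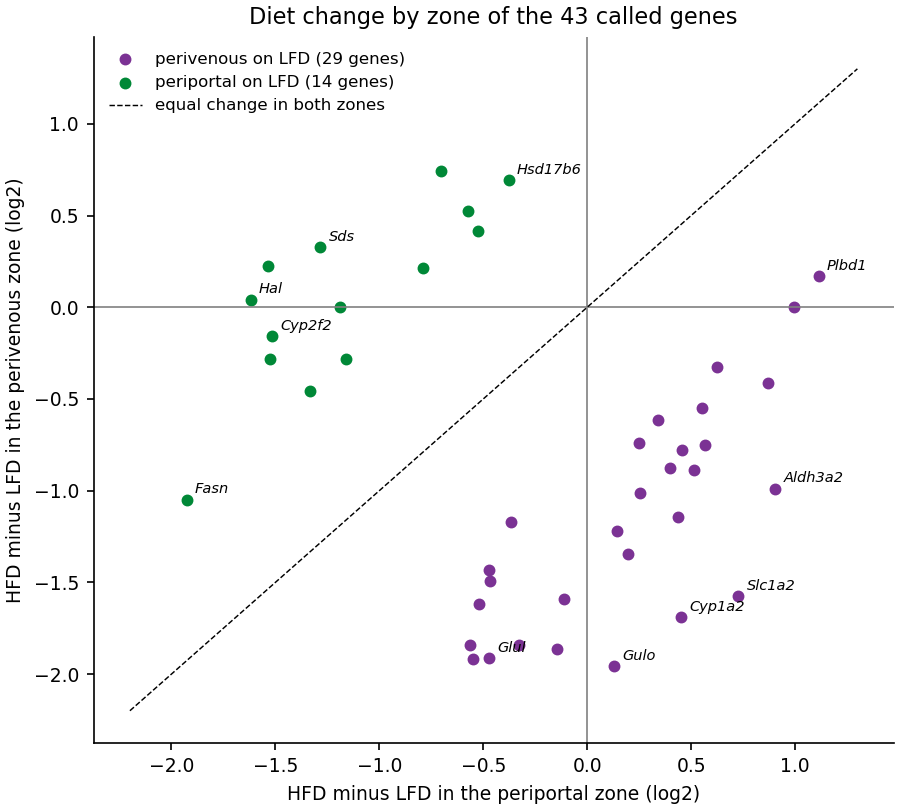
HFD minus LFD (log2) in the periportal zone against that in the perivenous zone for the 43 called genes, with the dashed line marking equal change. Of the 29 perivenous genes 27 lie below 0 on the perivenous axis, and all 14 periportal genes lie below 0 on the periportal axis.

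Of the 29 perivenous genes, 7 were cytochromes P450 (Cyp1a2, Cyp2c29, Cyp2c50, Cyp2c37, Cyp2c67, Cyp2a4 and Cyp4a10). They were counted after their values were seen, beside 0.426% of all genes called lower. How many cytochromes P450 were tested was not counted, so the 7 cannot be given as a share. Among the others tested, not all named here, Cyp2f2 was called higher. Cyp2e1 and Cyp7b1 (-0.63, limma adjusted p = 0.275) were not called. Cyp2c29 had perivenous counts of 543, 643, 811 and 762 on LFD and of 193, 161, 316 and 130 on HFD, without overlap, and an interaction of -1.72 (SE 0.22, limma adjusted p = 3.67e-05). Cyp2c50, Cyp2c37 and Cyp2c67 had interactions of -1.58, -1.37 and -0.96, and Cyp2a4, a testosterone hydroxylase, of -1.54. After subtraction of the negative probe with a floor of 1, the interaction was -0.15 for Cyp2c29, -0.02 for Cyp2c37, -0.20 for Cyp2c67 and -0.14 for Cyp2a4. It was then -1.47 for Cyp2c50 and -1.36 for Cyp4a10, and of the 7 only Cyp1a2 stayed called. The Cyp2c and Cyp2a genes form families of near-identical copies, and how far a probe counts a relative is not given in the sources used here, so the split between them is uncertain. Hsd3b5, a male-specific steroid reductase of the mouse liver, had perivenous counts of 70.7, 102, 127 and 122 on LFD and of 22.6, 25.6, 32.6 and 36.1 on HFD. No HFD AOI of either zone was above the LOQ for it, and its zone difference went from 1.76 ± 0.37 (SD, n = 4) to 0.25 ± 0.36 (SD, n = 4).

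Nr1i3 and Ahr, regulators of drug metabolism, were also called. Nr1i3 encodes the receptor CAR, which activates drug-metabolizing genes, and had perivenous counts of 245, 174, 248 and 237 on LFD and of 153, 51.1, 46.2 and 40.4 on HFD, with an interaction of -1.28 (SE 0.27, limma adjusted p = 0.0133). HFD mouse 1, with a zone difference of 2.27, lay within the LFD range of 2.04 to 3.05. Ahr, the receptor that drives Cyp1a2, had an interaction of -0.95 (SE 0.21, limma adjusted p = 0.0177) and perivenous counts of 45.7 to 65.8 on LFD and 38.7 to 51.3 on HFD, which overlap. Its periportal counts were 32.1, 31.3, 22.9 and 22.3 on LFD and 38.5, 49, 45.9 and 39.5 on HFD, near the negative probe. The call was lost without some single mice for both genes.

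Genes of the cells next to the central vein, where glutamine is made, were among those called. Glul, glutamine synthetase, had perivenous counts of 775, 1373, 1738 and 2159 on LFD and of 555, 340, 695 and 150 on HFD, and its zone difference fell by 1.44 (SE 0.32, limma adjusted p = 0.0217). One pair of mice overlapped, since HFD mouse 3 had a zone difference of 3.79 and LFD mouse 3 one of 3.55. Oat, ornithine aminotransferase, had perivenous counts of 764, 1143, 1294 and 1277 on LFD and of 605, 395, 570 and 145 on HFD, with an interaction of -1.48 (SE 0.32, limma adjusted p = 0.0161). Notum, a Wnt target that encodes a secreted Wnt inhibitor, had an interaction of -1.32 (SE 0.29, limma adjusted p = 0.0177), with perivenous counts of 43 to 73.8 on LFD and 28.8 to 39.7 on HFD. Lect2, a hepatocyte protein secreted into blood, had an interaction of -1.27 (SE 0.29, limma adjusted p = 0.0245), and the zone difference of HFD mouse 3, 2.07, lay above that of LFD mouse 1, 1.64. For each of Glul, Oat, Notum and Lect2 the call was lost without some single mice, HFD mouse 2 among them, when the interaction of Glul ranged from -1.80 to -1.03 and that of Oat from -1.78 to -0.99.

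Aldh3a2, Ces2c and Plbd1 were the 3 perivenous genes called higher on HFD in the periportal zone, where the mean negative probe itself went from 16.5 to 29.7. Aldh3a2 encodes a fatty aldehyde dehydrogenase. Its periportal counts were 36.1, 26.6, 25.5 and 23.4 on LFD and 83.1, 42.1, 43.5 and 46 on HFD, a diet change of 0.90 (limma adjusted p = 0.00591), and its perivenous counts were 162 to 336 and 63.2 to 221. Only 1 of 12 periportal AOIs on LFD and 4 of 12 on HFD were above the LOQ for it. Its mean periportal level above the negative probe was 11.7 ± 2.49 (SD, n = 4) on LFD and 24.2 ± 25.2 (SD, n = 4) on HFD, where mouse 1 was the highest. Its interaction was -1.89 (SE 0.26, limma adjusted p = 9.46e-05). In Ces2c, a carboxylesterase of a multigene family, and Plbd1 the periportal change was 1.00 and 1.11, the perivenous change was 0.00 and 0.17, and at most 1 of 12 periportal AOIs of a diet was above the LOQ. Rgn, regucalcin, a lactonase of vitamin C synthesis, had perivenous counts of 653 to 1840 on LFD and 152 to 468 on HFD and an interaction of -1.37 (SE 0.26, limma adjusted p = 0.00507). Aldh1a1, a retinaldehyde dehydrogenase, and Npr2, a natriuretic peptide receptor, had interactions of -1.10 and -1.40. Cyp4a10, a fatty acid omega-hydroxylase and PPARα target, had an interaction of -1.23 (SE 0.22, limma adjusted p = 0.00226).

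The remaining called perivenous genes had interactions of -1.29 to -0.80. Susd4 had -1.29, Rmdn2 -1.26, Fam107b -1.10, Gpcpd1 -1.03 and Akr1c20, of a multigene family, -0.99. Gdf15, a secreted growth and differentiation factor, had -0.96, and Aqp9, the glycerol channel of hepatocytes, had -0.80. The calls of Susd4, Gdf15, Aqp9, Cyp2c67, Ces2c and Plbd1 were each lost without some single mice.

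Hal and Sds aside, the called periportal genes included further enzymes of amino acid breakdown. The largest interaction was that of Etnppl, not such an enzyme. Etnppl, a phosphoethanolamine phospholyase, had periportal counts of 134, 142, 75.5 and 305 on LFD and of 51.4, 58.4, 37.2 and 56.2 on HFD, with an interaction of 1.76 (SE 0.30, limma adjusted p = 0.00143). Gls2, the liver glutaminase, had periportal counts of 103, 131, 138 and 229 on LFD and of 61, 60.3, 40.8 and 41.9 on HFD, and an interaction of 1.24 (SE 0.27, limma adjusted p = 0.0177). Neither gene's periportal counts overlapped between the diets. Gldc, of the glycine cleavage system, had an interaction of 1.10, Amdhd1, of histidine breakdown, 1.19, Aspg, an asparaginase, 0.88, and Aldh1b1, a mitochondrial aldehyde dehydrogenase, 1.44.

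The remaining called periportal genes had interactions of 0.88 to 1.07. Hsd17b6, a steroid dehydrogenase, had 1.07, Mfsd2a, a lysophospholipid transporter, 0.88, Frmd4b 1.00 and Gas2 0.94. Fasn, fatty acid synthase, had periportal counts of 272, 137, 331 and 1046 on LFD and of 165, 57.3, 146 and 45.2 on HFD, and perivenous counts of 134, 69.5, 118 and 836 against 210, 70.6, 105 and 32.4. Its interaction of 0.88 (SE 0.21, limma adjusted p = 0.0467) was closest to the threshold, and the zone difference of LFD mouse 4, -0.32, lay nearer to 0 than those of HFD mice 3 and 4, -0.48 and -0.43. The calls of Gls2, Hsd17b6, Mfsd2a, Frmd4b, Gas2, Aspg and Fasn were each lost without some single mice.

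The sequence around the start of the transcript that the RefSeq table uses is shown for the called genes whose window held the TCF/LEF core CTTTGAT, the binding sequence of the factors that carry the Wnt signal. The windows were read from RefSeq (GRCm38.p6) for 5488 of the 6805 genes tested, and the start used for Slc1a2 lies inside the gene span given above, not at its edge. The core, on either strand, was present in 3 of the 22 lower genes with a window (13.6%), in 1 of the 12 higher genes (8.33%) and in 2.61% of all windows. The windows of the 3 lower genes are Slc1a2 (chr2:102706188-102706487, + strand), Cyp2c29 (chr19:39286835-39287134, + strand) and Lect2 (chr13:56548489-56548788, - strand), and that of the higher gene is Hal (chr10:93488518-93488817, + strand). Capitals mark the core, and in Hal and Lect2 also a GCGTG core, each on either strand.
Slc1a2: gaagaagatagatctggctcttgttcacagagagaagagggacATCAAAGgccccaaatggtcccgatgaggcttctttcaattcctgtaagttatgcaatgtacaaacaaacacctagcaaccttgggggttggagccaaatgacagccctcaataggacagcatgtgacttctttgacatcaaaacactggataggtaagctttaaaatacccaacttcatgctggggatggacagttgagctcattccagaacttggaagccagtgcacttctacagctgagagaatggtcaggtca
Cyp2c29: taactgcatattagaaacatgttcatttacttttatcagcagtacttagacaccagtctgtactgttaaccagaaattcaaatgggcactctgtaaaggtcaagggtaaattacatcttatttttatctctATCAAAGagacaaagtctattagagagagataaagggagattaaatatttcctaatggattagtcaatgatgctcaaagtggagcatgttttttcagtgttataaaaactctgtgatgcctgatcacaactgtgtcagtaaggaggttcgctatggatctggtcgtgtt
Lect2: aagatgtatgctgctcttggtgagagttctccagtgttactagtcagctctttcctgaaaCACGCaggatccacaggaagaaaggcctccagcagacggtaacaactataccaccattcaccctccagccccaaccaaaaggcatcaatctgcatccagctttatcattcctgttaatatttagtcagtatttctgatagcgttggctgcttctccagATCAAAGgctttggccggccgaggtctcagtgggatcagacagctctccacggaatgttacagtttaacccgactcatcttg
Hal: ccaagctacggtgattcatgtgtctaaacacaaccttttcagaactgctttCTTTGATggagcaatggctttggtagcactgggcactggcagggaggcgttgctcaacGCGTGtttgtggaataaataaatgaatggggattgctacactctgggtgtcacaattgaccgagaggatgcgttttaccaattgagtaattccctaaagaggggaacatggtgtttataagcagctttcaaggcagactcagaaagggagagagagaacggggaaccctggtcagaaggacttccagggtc
The AhR core GCGTG was in 6 of the 22 lower genes (27.3%), 5 of the 12 higher genes (41.7%) and 51.1% of all windows, and the window of Cyp1a2 held none. The HNF4 core AAAGTCC was in 3 of the 22 lower genes (13.6%), 0 of the 12 higher genes and 4.63% of all windows. The 3 with the HNF4 core were Cyp2a4, Ces2c and Cyp2c67. The TCF/LEF and HNF4 cores can share letters where they adjoin, and no called gene held both. A match describes these letters and not a bound site.

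Because the genes above were called on the same mice that describe them, zonated genes were also taken from the 4 HetKO LFD mice. In those mice 137 genes differed between zones (2.01%), 75 higher perivenously and 62 higher periportally. The median zone difference of the 75 perivenous genes was 1.23, 1.46, 1.48 and 1.69 in Wt LFD mice 1 to 4 and 0.92, 0.66, 1.04 and 0.43 in Wt HFD mice 1 to 4. That of the 62 periportal genes was -1.08, -1.29, -1.40 and -1.36 on LFD and -1.04, -0.87, -0.89 and -0.59 on HFD. In both classes every HFD mouse was nearer to 0 than every LFD mouse. Of the perivenous genes 74 of 75, and of the periportal genes 54 of 62, had an interaction towards 0, with median interactions of -0.70 and 0.50 beside -0.02 over all genes. The interaction was called for 26 and 12 of them. A choice made on LFD favours genes that are zonated on LFD, and so a move towards 0 on HFD.

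The same description was therefore made for genes chosen in the 4 HetKO HFD mice, which was added after seeing the data. In those mice 120 genes differed between zones (1.76%), 58 higher perivenously, of which 52 were also in the LFD class, and 62 higher periportally, of which 48 were. The median zone difference of the 58 was 1.43, 1.59, 1.58 and 1.91 in Wt LFD mice 1 to 4 and 1.06, 0.83, 1.11 and 0.68 in Wt HFD mice 1 to 4. That of the 62 was -1.09, -1.29, -1.29 and -1.19 on LFD and -1.0, -0.91, -0.98 and -0.66 on HFD. The diets did not overlap in either class. An interaction towards 0 was found in 54 of 58 and 47 of 62 genes, with medians of -0.74 and 0.38, and it was called for 22 and 11.

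**Figure D5:**
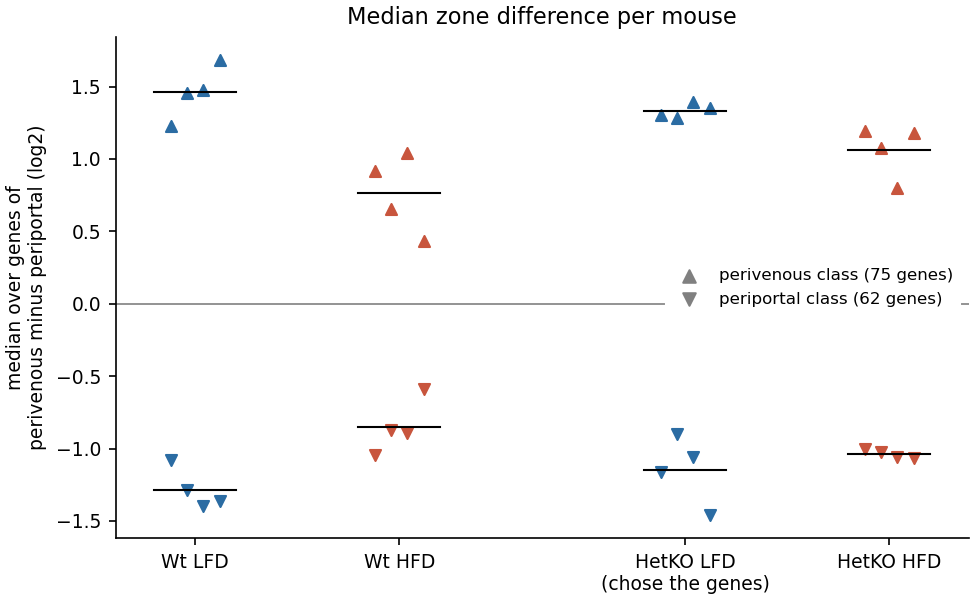
Median zone difference (log2) over the 75 perivenous and 62 periportal genes chosen in HetKO LFD mice, a point for each mouse and a bar for the mean of 4 mice. Wt HFD mice lie nearer to 0 than Wt LFD mice in both classes. The HetKO LFD mice, which chose the genes, lie between 1.29 and 1.39 and between -1.46 and -0.90. The HetKO HFD mice lie between 0.80 and 1.20 and between -1.06 and -1.0, so the HetKO diets overlap in the periportal class.

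The size of the change differed with the level of the genes, which was not tested. When the perivenous class was split into 3 parts by mean level over all AOIs, the median zone difference went from 1.28 to 0.43 in the lowest 25 genes, from 1.88 to 0.96 in the middle 25 and from 1.47 to 0.95 in the highest 25. In the periportal class it went from -1.33 to -0.53, from -1.49 to -0.78 and from -1.20 to -1.09. The 21 highest genes of the periportal class thus had a median interaction of 0.08, with 0 called. Only 5 perivenous and 11 periportal class genes were above the LOQ in all 48 Wt AOIs, and their median interactions were -0.17 and 0.03, with 0 called. The median diet change of the 5 was -1.39 periportally and -1.64 perivenously, and that of the 11 was -1.50 and -1.57.

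Some highly expressed genes had as large a zone difference on HFD as on LFD. Hpx, the heme-binding plasma protein hemopexin, had zone differences of -1.53, -1.94, -1.71 and -1.57 on LFD and of -1.97, -1.77, -2.27 and -1.98 on HFD, with an interaction of -0.31 (SE 0.15, limma adjusted p = 0.639). Mup13, of the major urinary proteins, had a mean zone difference of 2.03 on LFD and 2.31 on HFD, although its perivenous counts were 9174 to 42648 on LFD and 1669 to 3950 on HFD. The Mup genes are near-identical copies and their split is uncertain. Alb, albumin, had -1.12 and -1.22. The interactions of Mup13 (0.29) and Alb (-0.11) did not pass and changed sign without single mice. Hpx, Mup13 and Alb were chosen after their values were seen, as class genes whose zone difference was not smaller on HFD, of which there were 9.

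Counted within each diet, 171 genes differed between zones on LFD (2.51%) and 80 on HFD (1.18%). The 73 genes on both lists were 42.7% of the LFD list and 91.2% of the HFD list, and each had the same sign on both. Of the 7 genes called on HFD alone, Saa1 and Saa2, serum amyloid A proteins of the acute phase, had the largest zone differences, -1.29 and -1.39, against -0.26 and -0.58 on LFD. Their interactions of -1.03 and -0.81 did not pass the test (limma adjusted p = 0.0851 and 0.384), the pair are near-identical copies, and both were chosen after their values were seen.

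Grouped by function, the called genes fell into lists as follows, beside 0.426% and 0.206% of all genes called lower and higher. Of 32 perivenous hepatocyte markers tested, 13 had a called interaction, all lower, and the list's median zone difference was 1.74 on LFD and 0.97 on HFD. Of 39 periportal hepatocyte markers, 9 were called, all higher, with medians of -1.30 and -0.79. Of 56 genes of steroid and xenobiotic metabolism, 8 were called lower and 2 higher, with a median interaction of -0.20. Of 16 genes of the urea cycle and ammonia handling, Slc1a2, Glul and Oat were called lower and Gls2 higher. Of 42 genes of amino acid degradation, 4 were called higher (Hal, Amdhd1, Sds and Gldc) and none lower. The list's median interaction was 0.06, and 16 of the 42 were below 0. Of 14 genes of vitamin C and sulfur antioxidant synthesis, Gulo and Rgn were called lower. Of 8 Wnt targets and regulators tested, Glul and Notum were called lower, 3 had an interaction above 0, and the median interaction was -0.08. Rhbg, of the same list, had an interaction of -0.42 (SE 0.25, limma adjusted p = 0.734) and was not called. Of 16 sex-dimorphic growth hormone targets, Hsd3b5 and Cyp2a4 were called lower, and the list's median interaction was -0.37. Several of these lists share genes, and the perivenous and periportal marker lists hold the 6 markers described first. The lists were written with earlier results of these data known, so these counts are a description and not a test.

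Of 17 lipogenesis genes only Fasn was called, and 14 of 17 had an interaction above 0, with a median of 0.20. Over all 6805 genes, 3111 had an interaction above 0 and 3694 one below 0, with a median of -0.02. Acly, ATP citrate lyase, had zone differences of -1.80, -1.33, -1.94 and -0.67 on LFD and of -0.57, -0.33, -0.80 and -0.71 on HFD, and its interaction of 0.83 did not pass (SE 0.21, limma adjusted p = 0.0655). Of 30 genes of fatty acid oxidation and the peroxisome only Cyp4a10 was called, and 28 of 30 had an interaction below 0, with a median of -0.18. None of 17 lipid droplet genes was called, where 0.632% of all genes were. Pparg, the lipogenic receptor PPARγ, had an interaction of -0.82 (SE 0.22, limma adjusted p = 0.107) with a called rise in the periportal zone (1.01, limma adjusted p = 0.00635) and a change of 0.19 (limma adjusted p = 0.479) in the perivenous zone. Its periportal counts were 32.6, 36.2, 20.2 and 14.8 on LFD and 44.6, 44.4, 66.3 and 47.9 on HFD, and 0 and 4 of 12 periportal AOIs were above the LOQ for it.

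None of the genes tested for bile acid synthesis and transport (20 genes), gluconeogenesis and glycolysis (18), cholesterol synthesis (18), the TCA cycle (26), oxidative phosphorylation (72), cytosolic ribosomal proteins (78), mitochondrial ribosomal proteins (65), secreted plasma proteins (43), complement and coagulation (47), the unfolded protein response (22), homologous recombination (9), collagens (16) or tight junctions (20) was called. Over all genes 0.632% were called, a share at which a single list of these sizes can easily hold none. Slco1b2, a bile acid uptake transporter, and Abcc3, a bile acid exporter, had interactions of -0.61 and -0.71 (limma adjusted p = 0.0859 and 0.0914) with no overlap of the diets' zone differences. Fbp1, an enzyme of gluconeogenesis, had zone differences of -1.52, -1.38, -1.62 and -1.29 on LFD and of -0.99, -1.10, -1.04 and -0.90 on HFD, and its interaction of 0.45 (SE 0.14, limma adjusted p = 0.247) did not pass. The oxidative phosphorylation list had median diet changes of -0.74 periportally and -0.73 perivenously, with a median interaction of 0.05. The cytosolic ribosomal list had -0.82 and -0.90, with a median interaction of -0.08, and 59 of 78 genes below 0. Beside it, 3694 of all 6805 genes were below 0, with a median of -0.02, and the direction of the list was not tested.

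Among the few markers of other liver cell types that were tested none had a called interaction, where 0.632% of all genes did. Of 11 genes of Kupffer cells and macrophages tested, the 4 HFD zone differences lay above the 4 LFD ones in 5 (Clec4f, Cd5l, Adgre1, Csf1r and C1qb), beside 1.75% of all genes. The list's median zone difference was -0.43, -0.42, -0.55 and -0.47 in LFD mice 1 to 4 and -0.28, 0.16, -0.04 and 0.02 in HFD mice 1 to 4, and its summed level was 591 to 755 periportally and 413 to 570 perivenously on LFD, against 494 to 855 and 487 to 718 on HFD. C1qb, a complement component made by these cells, came closest, with an interaction of 0.90 (SE 0.22, limma adjusted p = 0.0527). Of 13 endothelial, 5 stellate, 2 portal fibroblast, 2 neutrophil and 2 erythrocyte genes tested, none was called. Of 14 cholangiocyte genes only Spp1 was tested, with an interaction of 0.83 (SE 0.38, limma adjusted p = 0.613), and no lymphocyte gene of the list was among the targets used here. The part of these cells in the results was not tested.

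In HetKO mice the same contrast gave 5 called genes (0.0735%), Cyp1a2, Cyp2c29, Slc1a2 and Cyp2c37 lower and Gls2 higher. Cyp1a2 had an interaction of -1.41 (SE 0.20, limma adjusted p = 0.00103) there and Gls2 one of 1.10. All 5 were among the 43 called in Wt mice, and 42 of the 43 had the same sign in HetKO, beside 52.4% of all genes. The median interaction of the 29 lower genes was -1.29 in Wt, which chose them, and -0.60 in HetKO, and of the 14 higher genes 1.14 and 0.55. The difference between the genotypes was called for 0 of 6805 genes by limma, with 357 at an unadjusted p under 0.05 and a smallest adjusted p of 0.742. Both genotypes shared the slide of their diet, and the mean negative probe level went from 18.6 and 19.5 (periportal and perivenous) to 23.6 and 25.8 in HetKO, against 16.5 and 19.1 to 29.7 and 30.6 in Wt.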

How the data were processed

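Whole-transcriptome GeoMx profiles of 96 AOIs (16 mice, 3 AOIs per mouse and zone) were used as deposited. The authors sequenced the released tags, deduplicated them and summed them per target, and the study's methods state normalization to nuclei. The deposited signal table of 7395 targets nevertheless had an upper quartile of 60.2 in every AOI, so its values were taken as upper-quartile scaled counts. The deposited table of AOI measures gave read counts, nuclei counts and sequencing saturation in percent. 8 numeric columns of the samples were not used, and tool versions of the upstream steps are not given in the sources used here.

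Values were transformed as log2(value + 1) of the deposited signal and averaged over 3 AOIs per mouse and zone. The 6805 genes above the LOQ in at least 10 AOIs were tested, 589 were not. The zone difference per mouse was compared between diets with limma 3.58.1 (R 4.3.3; 4 mice against 4, variance trend on the level, Benjamini-Hochberg adjustment), and called at an adjusted p under 0.05 and 0.80 log2. Genes were named from the 6 markers, both stain targets, the 12 largest interactions in each direction among called genes without overlap, and up to 3 genes of each of 34 lists with the smallest adjusted p, together with all called genes. Members and lists were chosen with earlier results of these data known. Promoter sequences and gene positions are from RefSeq (GRCm38.p6), in which 7363 symbols matched.

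Alternatives were another pseudocount, filter and scaling, subtraction of the negative probe, all 16 mice in one fit, a block on mouse number, leaving out each mouse, and edgeR 4.0.16 and DESeq2 1.42.0 on read counts recovered by undoing the scaling (99.9463% whole within 0.01). The scripts were tested on simulated data. Counting error is limited by 60874 to 1643695 reads per AOI. The limma SE and p-values combine the spread of a gene between mice with that of other genes at a similar level. The SE was smaller than the SDs of the gene alone would give for Gulo, Glul, Oat and Etnppl, and larger for Cyp2c37. The p-values thus do not rest on the spread of each gene between its mice alone.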

Additional observations from a re-analysis of the deposited data

Results flagged for a closer look

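Of 130 groups of 4 mice examined for a single distant value, 8 had one, where chance gives about 1 in 20 groups. Mouse 1 of Wt HFD was the distant one in 5 of them. Its share of targets above the LOQ was 45.2% in the periportal zone, where the other HFD mice had 12.7% to 17.6%, and 29.6% in the perivenous zone, where they had 15% to 15.9%. The zone difference of Hal was -2.74 in that mouse and -1.58 to -1.37 in the other 3, that of Hsd17b6 was -1.13 against -0.42 to -0.33, and that of Cyp2c67 was 1.11 against 0.91 in each of the other 3. Mouse 4 of Wt LFD was the distant one in the other 3 groups. Its zone difference was 2.46 for Rmdn2, where the other LFD mice had 1.54 to 1.64, -0.73 for Alb, where they had -1.28 to -1.21, and 1.64 for Pparg, where they had 0.59 to 0.68.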

How the results depend on the processing

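The count of 43 genes was 26 with the filter at 48 AOIs, 25 with DESeq2, 1 after subtraction of the negative probe with a floor of 1, 0 after scaling to nuclei (11 at an unadjusted p under 0.05 by limma) and 26 after subtraction with a pseudocount of 10. It was 39 to 64 under the other alternatives over all 8 mice, with 62 by edgeR with TMM and 64 with upper-quartile scaling. Without a variance trend it was 30, and this setting and the subtraction with a pseudocount of 10 were chosen after seeing the data. Leaving out one mouse gave 28 to 53 genes, with 28 without Wt HFD mouse 2. The median interaction of the perivenous markers, -0.71, ranged from -0.86 to -0.66 over mice left out. That of the periportal markers, 0.39, ranged from 0.30 to 0.46 over mice left out, and was 0.035 after subtraction of the negative probe and 0.23 after subtraction with a pseudocount of 10. The interaction of Cyp2e1 was 0.16 after subtraction. Over mice left out, that of Mup13 ranged from -0.11 (without HFD mouse 3) to 0.59, and that of Alb from -0.25 to 0.022 (without LFD mouse 4), with 0.0081 without HFD mouse 4. None of these 3 genes was called. The cause of these changes was not tested.

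Of the 43 called genes, Cyp1a2 alone stayed called after subtraction and none did after scaling to nuclei, which changed their interactions by at most 0.057. All 43 kept their sign after subtraction. Some were then close to 0, with -0.02 for Cyp2c37, and others were larger in size, with -3.14 for Notum. With the mouse number as a replicate block 46 genes were called and the call of Gas2 was lost. Same-numbered LFD and HFD mice had correlations of -0.05, 0.01, -0.01 and -0.06 between their deviations, so the numbers were not taken as pairs. Levels below the LOQ in the low zone limit how large a difference between zones could be measured. On HFD fewer targets were above the LOQ.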
